A study of Mus musculus with 19 samples.

Results

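Broad H3K27ac domains are long, uninterrupted stretches of chromatin that carry acetylation of lysine 27 on histone H3. Here they are the peaks of 1 deposited H3K27ac list of untreated mouse hippocampal neurons that were 5 kb or wider and overlapped, by 1 bp or more, a peak of the matching list of neurons treated with bicuculline and 4-aminopyridine (Bic/4AP). Of 49701 peaks in the untreated list, 1345 reached that width, and 1297 of these also met a Bic/4AP peak and form the set described here. They were 2.61% of the peaks and held 9.70 of the 71.6 Mb in that list, or 13.6% of its acetylated bases. The domains were chosen by peak width and overlap, so both are given as descriptions with no test. The comparison set is the 26671 peaks of the same list that were under 5 kb and also met a Bic/4AP peak, called narrower shared peaks.

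The neurons came from hippocampi of embryonic day 17 mice and were grown for 10 days in culture. RNA-seq (poly(A)-selected, ICR mice) covered Bic/4AP for 3 h, tetrodotoxin (TTX) and untreated cultures, with 3 libraries each. Bisulfite sequencing (C57BL/6 mice) covered the same treatments with 1 library each, and ChIP-seq peak lists (ICR mice) covered H3K27ac with Bic/4AP and untreated, 2 lists each, and H3K4me1 untreated, 2 lists. Bicuculline blocks GABA-A receptors and 4-aminopyridine blocks potassium channels, so together they raise firing, while TTX blocks voltage-gated sodium channels and silences it. The sources do not give how long TTX was applied, and the titles of the H3K27ac lists that define the domains name Bic/4AP without a time. Separate cultures are not named for the libraries of a group, and the p-values below therefore reflect library-to-library spread that could be technical. RNA and methylation values come from different strains and therefore not from the same animals.

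H3K27ac is laid down by the acetyltransferases CBP and p300 at active promoters and enhancers. In most cell types the widest stretches of this mark, often called super-enhancers or stretch enhancers, lie at genes that define the cell's identity, above all its own transcription factors. CpGs under active promoters and enhancers usually carry little methylation, whereas most other CpGs of a mammalian genome are methylated.

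The RNA libraries held 4.34 to 4.59 M reads with Bic/4AP, 9.68 to 12.6 M with TTX and 5.63 to 9.97 M untreated, as recovered from the steps of the RPKM values. RPKM are reads scaled to gene length and library size. Depth thus differed between the groups, and its part in the RNA differences was not tested. Neuron markers were present: the summed level of 22 general neuron markers was 2028 to 2055 RPKM with Bic/4AP, 1316 to 1453 RPKM with TTX and 1310 to 1532 RPKM untreated. The 14 astrocyte markers summed to 299 to 337 RPKM with Bic/4AP, 296 to 319 RPKM with TTX and 299 to 356 RPKM untreated. The 10 microglia and macrophage markers summed to 9.15 to 12.8 RPKM with Bic/4AP, 10.8 to 14.4 RPKM with TTX and 8.56 to 10.5 RPKM untreated. The first-deposited H3K27ac lists stood apart from the lists that define the domains, with 7721 peaks for Bic/4AP and 4846 untreated, against 55035 peaks for Bic/4AP and 49701 untreated. Their median peak widths were 785 bp for Bic/4AP and 378 bp untreated.

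Among the widest domains were the loci of all 3 genes for miR-9, a microRNA of the neural lineage that promotes neuronal differentiation. Mir9-2 lay in a domain of 31.8 kb, Mir9-3 in one of 25.6 kb and Mir9-1 in one of 20.9 kb. In all, 27 of the 1228 microRNA genes in the RefSeq table (2.199%) overlapped a broad domain. Their share was close to that of all genes in it (966 of 49943). Besides the miR-9 genes, the 27 included Mir124a-1 (14.8 kb domain), Mir124a-3 (8.81 kb), Mir137 (8.52 kb), Mir7-2 (8.13 kb), Mir125b-1 (10.4 kb), Mir125b-2 (10.2 kb), Mir99b (5.03 kb), and Mir99a together with Mirlet7c-1 (8999 bp). Of the 27 entries, 22 have Mir names. Among the others, Gm25641, Gm51268 and Gm51285 lie at the miR-9 hairpins on the opposite strand. miR-124 and miR-137 are also known as neuronal regulators. The mature sequences below are shown because they are the products encoded inside these domains. They are RefSeq sequences (GRCm38.p6), given 5′ to 3′, with the seed (bases 2 to 8), which pairs with target mRNAs, in capitals.
miR-9-5p (Mir9-1, Mir9-2 and Mir9-3): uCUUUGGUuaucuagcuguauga
miR-9-3p (Mir9-1, Mir9-2 and Mir9-3): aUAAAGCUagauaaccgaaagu
miR-137-3p (Mir137): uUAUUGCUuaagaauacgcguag
miR-7a-5p (Mir7-2): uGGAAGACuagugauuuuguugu
miR-125b-5p (Mir125b-1 and Mir125b-2): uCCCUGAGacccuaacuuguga
miR-99a-5p (Mir99a): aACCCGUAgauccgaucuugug
miR-99b-5p (Mir99b): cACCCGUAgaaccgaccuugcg
let-7c-5p (Mirlet7c-1): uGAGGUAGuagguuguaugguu
The 3 miR-9 genes give the same mature strands, and miR-99a-5p and miR-99b-5p share the seed ACCCGUA. The other seeds in this list differ from one another.

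The promoters of 5 genes whose starts lie in broad domains are shown next, as examples of the sequence on which acetylation and methylation were read. The windows run over 250 bases before to 50 bases after an annotated start, on the strand of the gene, from RefSeq on GRCm38.p6, and every CpG dinucleotide is in capitals. Mir9-3hg is the host transcript of Mir9-3, Bcl11a and Nr2f1 encode transcription factors of forebrain neurons, Bdnf encodes brain-derived neurotrophic factor, and Gria2 encodes an AMPA-type glutamate receptor subunit.
Mir9-3hg, chr7:79499776-79500075, plus strand: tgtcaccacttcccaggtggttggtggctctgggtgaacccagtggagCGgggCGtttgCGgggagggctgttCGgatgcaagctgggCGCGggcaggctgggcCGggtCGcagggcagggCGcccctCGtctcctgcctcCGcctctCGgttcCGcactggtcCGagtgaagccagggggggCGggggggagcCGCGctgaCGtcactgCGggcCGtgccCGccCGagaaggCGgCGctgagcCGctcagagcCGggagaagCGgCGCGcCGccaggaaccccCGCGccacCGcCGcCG
Bcl11a, chr11:24080445-24080744, plus strand: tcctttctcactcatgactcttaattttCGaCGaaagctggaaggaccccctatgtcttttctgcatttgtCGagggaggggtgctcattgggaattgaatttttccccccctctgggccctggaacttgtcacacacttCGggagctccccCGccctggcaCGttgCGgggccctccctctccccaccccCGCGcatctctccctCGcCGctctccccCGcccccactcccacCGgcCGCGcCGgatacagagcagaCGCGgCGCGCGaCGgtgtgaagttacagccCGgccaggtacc
Nr2f1, chr13:78198824-78199123, minus strand: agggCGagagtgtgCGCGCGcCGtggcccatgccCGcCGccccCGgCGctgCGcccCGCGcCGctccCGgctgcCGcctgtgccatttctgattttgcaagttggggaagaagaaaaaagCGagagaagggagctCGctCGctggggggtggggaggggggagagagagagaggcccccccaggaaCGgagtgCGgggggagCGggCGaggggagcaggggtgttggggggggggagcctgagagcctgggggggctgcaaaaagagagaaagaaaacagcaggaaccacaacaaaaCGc
Bdnf, chr2:109674450-109674749, plus strand: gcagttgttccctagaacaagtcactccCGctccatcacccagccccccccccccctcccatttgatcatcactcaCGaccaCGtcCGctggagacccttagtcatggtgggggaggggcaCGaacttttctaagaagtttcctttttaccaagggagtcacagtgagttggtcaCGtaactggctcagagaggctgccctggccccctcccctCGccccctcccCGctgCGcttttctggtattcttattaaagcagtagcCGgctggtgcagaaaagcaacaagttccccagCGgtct
Gria2, chr3:80802786-80803085, minus strand: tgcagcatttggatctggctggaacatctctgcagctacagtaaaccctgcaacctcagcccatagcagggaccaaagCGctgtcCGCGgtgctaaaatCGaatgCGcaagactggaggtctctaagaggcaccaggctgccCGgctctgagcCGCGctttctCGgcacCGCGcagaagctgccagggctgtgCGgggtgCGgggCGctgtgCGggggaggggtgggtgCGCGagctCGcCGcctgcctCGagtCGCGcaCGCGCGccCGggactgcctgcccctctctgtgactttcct
The Mir9-3hg window holds 35 CpGs, that of Gria2 26, those of Bcl11a and Nr2f1 23 each and that of Bdnf 11. Of the CpGs listed in all 3 bisulfite libraries in these windows, mean methylation was 0.985% with Bic/4AP, 0% with TTX and 0.263% untreated for Mir9-3hg (20 CpGs). For Gria2 it was 0.937% with Bic/4AP, 0.561% with TTX and 0.239% untreated (22 CpGs), and for Nr2f1 2.02% with Bic/4AP, 0% with TTX and 2.43% untreated (10 CpGs). For Bcl11a it was 0% with Bic/4AP and TTX and 0.476% untreated (14 CpGs), and for Bdnf 0% with Bic/4AP and TTX and 0.833% untreated (6 CpGs). All 5 windows were thus close to unmethylated in each library.

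Over all 385 promoter windows inside broad domains, the median was 11 CpGs and 57.0% G+C, against 7 CpGs and 52.7% over all 32851 windows in the table. A cAMP response element (TGACGTCA, searched on both strands) was in 5 windows of the domains (1.30%) and in 1.79% of all windows. The Mir9-3hg window above is among those 5. AP-1 motifs (TGACTCA, and TGAGTCA as its reverse complement) were in 8 windows of the domains (2.08%) and in 5.20% of all. E-boxes of the letters CAGATG, a form bound by NeuroD-type factors, were in 74 windows (19.2%) and in 17.2% of all, and those of the letters CAGCTG in 65 windows (16.9%) and in 16.3% of all. None of these motifs contains another as a whole. The matches are a description of letters in the windows.

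The median domain was 6436 bp wide, with quartiles of 5562 and 8019 bp. There were 500 domains under 6 kb, 160 of 10 kb or more and 20 of 20 kb or more. The 3 narrowest were 5002, 5001 and 5000 bp wide, and the last of these covered a start of Lrrc7, which encodes a postsynaptic scaffold protein. The 3 widest shared peaks below the limit were 4998, 4997 and 4996 bp wide, inside no gene, Snx7 and Fam189a1. The authors' peak score was at 3100 or more for 654 domains and for 184 narrower shared peaks. Chromosome 2 held the most domains, 109, and chromosome X held 1, which was at Gpm6b (6.12 kb), a gene for a membrane glycoprotein of neurons and glia. That is 0.0771% of the domains on X, against 1.18% of narrower shared peaks.

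The widest 2 domains both lay inside Tcf4, which encodes a basic helix-loop-helix partner of proneural factors. They covered chr18:69572889-69616120 (43.2 kb) and chr18:69491941-69531062 (39.1 kb), in mm10 coordinates as deposited. Next came a 35.5 kb domain over starts of Nfix (chr8:84756182-84791639), a nuclear factor I gene of hippocampal development, and a 34.8 kb domain at chr15:85652250-85687077 that overlapped no gene of the table. Also among the widest were the domain of C130071C03Rik and Mir9-2 (chr13:83712181-83743945, 31.8 kb) and that of Nr2f1 and its divergent noncoding neighbour A830082K12Rik (chr13:78171932-78201565, 29.6 kb). Bcl11a (chr11:24072494-24100234, 27.7 kb), the body of Zbtb20 (chr16:43498333-43525909, 27.6 kb), Zeb2 (chr2:45092479-45120050, 27.6 kb), Mir9-3hg (chr7:79498840-79524441, 25.6 kb) and Msra (chr14:64162751-64186930, 24.2 kb) came after these.

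Some genes carried many domains. Msra, which encodes methionine sulfoxide reductase A, was overlapped by 16 domains that summed to 169761 bp of its 333283 bp. Zbtb20, a zinc finger factor of hippocampal pyramidal neurons, and Celf4, an RNA-binding protein gene, had 10 each. Kalrn, which encodes a guanine exchange factor of dendritic spines, had 9, and Celf2, Dlg2 and Pard3 had 8 each. Most of these genes are long: Dlg2 spans 1973059 bp, Celf2 856648 bp, Zbtb20 758704 bp, Kalrn 604205 bp, Pard3 548906 bp and Celf4 276901 bp. The numbers of domains per gene are not corrected for gene length. Tcf4 had 7 domains that summed to 132698 of its 344539 bp. Of 966 genes overlapped by any domain, 798 met 1 domain, 106 met 2 and 62 met 3 or more. The median gap between a domain and its nearest neighbour was 86.5 kb, and 675 domains (52.0%) had another within 100 kb.

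Coverage in the Bic/4AP list varied among domains. Bic/4AP peaks covered a median of 90.3% of a domain's bases. They covered 90% or more of 656 domains and under 50% of 190. A domain met 1 Bic/4AP peak in 730 cases, 2 in 346 and 3 or more in 221. The widest overlapping Bic/4AP peak was itself 5 kb or wider for 718 domains (55.4%). Seen from the other list, 1894 Bic/4AP peaks of 5 kb or more met an untreated peak, and 717 of them (37.9%) met one of 5 kb or more. At the wider Tcf4 domain a single Bic/4AP peak was 57.3 kb wide, and at Nr2f1 one was 40.4 kb wide. At the other end, a 15.9 kb domain in no gene (chr3:18930019-18945947) was covered to 22.8%, and a 12.4 kb domain inside Itsn1 (chr16:91872306-91884727) to 12.7%.

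The other peak lists did not enter the choice of domains. A peak of the first Bic/4AP list lay in 454 domains (35.0%) and one of the first untreated list in 487 (37.5%). The shares among narrower shared peaks were 20.3% and 11.7%. Because domains are wider, bases covered are the fairer measure: the first Bic/4AP list covered 10.95% of domain bases and 12.6% of the bases of narrower peaks, and the first untreated list covered 5.71% and 3.91%. In 656 domains (50.6%) neither of the first lists had a peak. Peaks of H3K4me1, the mark of enhancers, lay in 640 domains (49.3%) for the first list and in 587 (45.3%) for the second, against 13.2% and 11.6% of narrower shared peaks. They covered 5.42% and 4.41% of domain bases, against 2.90% and 2.35%. Domains without a gene start held H3K4me1 peaks of the first list in 52.3% of cases and domains with a start in 37.5%.

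A start of 1 or more genes lay in 261 domains (20.1%), against 13.1% of narrower shared peaks. Every annotated start of a gene counted, also an alternative start inside the gene. At Cyth1, Zmynd8, Hdac9 and Nfix, for example, the domain does not reach the upstream end of the gene. RNA levels are per gene and do not tell its starts apart. These shares are not corrected for width. Domains had a median width of 6436 bp and narrower peaks of 1153 bp, so a domain has more room for a start. Starts were taken from a RefSeq promoter table that lacks some genes and the whole of chromosome 18, where 55 domains lie, so the counts are lower limits. Of the domains, 1024 overlapped an annotated gene body and 273 overlapped none. The domains held starts of 306 genes, 187 of them protein-coding and 119 long noncoding. Most domains with a start, 214 of 261, had a single gene, 44 had 2 and 3 had 3. Those with 3 were at Zmynd8 with the noncoding 1810021M19Rik and Gm11465, at Ptms with A230083G16Rik and Gm38896, and at Map6d1 with Gm41431 and Gm49566. Among domains with 10 or more measured CpGs, the share with a start was 16.0% at 5 to 6 kb and 12 of the 20 domains of 20 kb or more had one.

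Of 41 identity transcription factors with a known start, 14 (34.1%) had it in a broad domain, against 212 of all 17806 genes of the expression files that have a known start (1.19%). Those 14 were Nfix, Nr2f1, Bcl11a, Zeb2, Myt1l, Fezf2, Lhx2, Emx2, Neurod6, Klf7, Zbtb18, Neurod1, Hivep2 and Sox4. Another 12 (29.3%) had their start in a narrower shared peak, where the share over all genes was 18.5%. Counting any overlap with the gene body, 25 of the 48 factors met a broad domain, among them Tcf4, Zbtb20, Nfib, Nfia, Sox11 and Bhlhe22, against 703 of 23841 matched genes (2.95%). Counts by gene body are not corrected for gene length, and a long gene has more room for a domain. The list was drawn up with earlier results of these data known, so the share is a description.

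Of 37 excitatory synapse genes 4 had their start in a broad domain (10.8%), Grik2, Gria2, Slc17a7 and Camk2b, and 23 (62.2%) in a narrower peak. Of 14 inhibitory synapse genes 1 was in a broad domain, Gabra2, and 9 (64.3%) in narrower peaks. Of 24 late activity genes 3 were in broad domains, Lingo1, Bdnf and Nfil3, and 7 (29.2%) in narrower peaks. Of 26 rapid activity genes 1 was in a broad domain, Nr4a3 (3.85%), and 7 (26.9%) in narrower peaks. General neuron markers gave 1 of 11 (Basp1), interneuron genes 1 of 14 (Gad1), and chromatin and DNA methylation genes 2 of 20 (Arid1b and Hdac9). None of 12 housekeeping genes had its start in a broad domain, while 9 of them had it in a narrower shared peak. Voltage-gated channels gave 0 of 14. Markers of other cells also gave none: 0 of 11 astrocyte, 0 of 6 oligodendrocyte lineage, 0 of 7 microglia and macrophage, 0 of 6 vascular, 0 of 9 progenitor and cycling and 0 of 5 choroid plexus genes. Over all genes the share was 1.19%, at which a list of 5 to 14 genes would mostly give 0. The zeros of housekeeping genes, channels and other cells therefore do not show a lower share than over all genes. Counting any overlap with the gene body, 18 of 55 excitatory and 4 of 20 inhibitory synapse genes met a broad domain. So did 4 of 24 voltage-gated channels, 5 of 22 general neuron markers and 6 of 27 chromatin and DNA methylation genes. Late activity genes gave 4 of 33, rapid ones 2 of 34 and interneuron genes 2 of 18. Among markers of other cells, 1 of 14 astrocyte (Slc1a2) and 1 of 10 microglia and macrophage markers (Ptprc) did. These counts by gene body are likewise not corrected for gene length. The bar plot of gene lists sets the shares by gene start beside that of all genes.

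**Figure D1:**
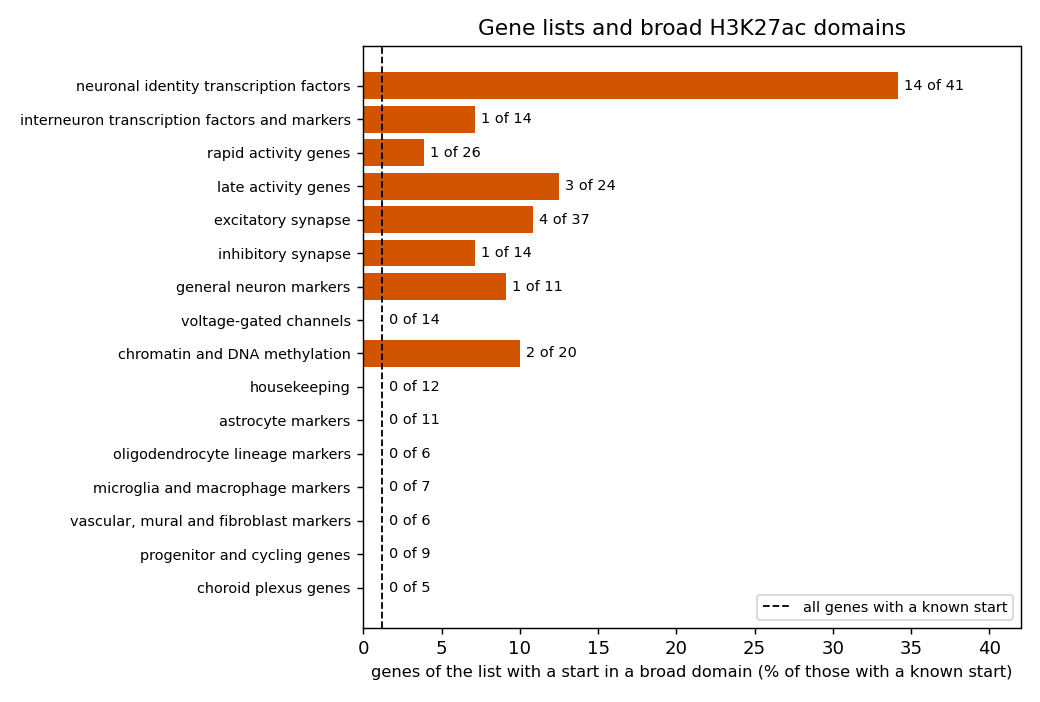
Share of each gene list, in % of its genes with a known start, whose start lay in a broad H3K27ac domain; labels give the counts and the dashed line is the share over all 17806 genes (1.19%). Neuronal identity transcription factors reach 34.1%, and 8 lists (housekeeping genes, voltage-gated channels and 6 lists of other cells) are at 0. Lists this short would mostly be at 0 at the share over all genes.

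Genes with a start in a broad domain were highly expressed. The expression files hold 212 of them. Their median level was 29.2, 29.7 and 28.3 RPKM in the 3 Bic/4AP libraries, 30.2, 29.8 and 30.5 RPKM with TTX and 28.1, 29.2 and 27.7 RPKM untreated. Genes of narrower shared peaks had medians of 22.7, 23.9 and 22.6 RPKM untreated, and the 14297 genes elsewhere 1.24, 1.54 and 1.38 RPKM. Of the 212 genes, 87 (41.0%) were in the top decile of the untreated level, against 29.4% of genes of narrower peaks and 5.08% of genes elsewhere. At the low end, 15 (7.08%) were under 1 RPKM, against 4.06% of genes of narrower peaks and 47.4% of genes elsewhere. The share at 10 RPKM or more was not larger for domain genes than for genes of narrower peaks in any untreated library. Differences between libraries were small beside the gaps in median level. In bulk RNA, fewer cells of a type and less RNA per cell cannot be told apart.

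The miRNA hairpins of the domains were mostly near 0 in these libraries of poly(A) RNA, which do not measure mature miRNAs. Mir9-2 had 15.3, 3.03 and 12.8 RPKM with Bic/4AP, 24.2, 24.6 and 24.4 RPKM with TTX, and 17.3, 16.7 and 16.9 RPKM untreated. Mir9-3 was listed at 0 in the 3 Bic/4AP libraries, at 0.879, 0 and 0 RPKM with TTX, and at 17.7, 11.1 and 15.5 RPKM untreated. Mir137 was listed at 0 in all Bic/4AP and TTX libraries and at 19.5, 17.9 and 19.1 RPKM untreated. Mir9-1 was likewise at 0 with Bic/4AP, at 0.889, 0.948 and 0 RPKM with TTX and at 9.97, 12.4 and 25.4 RPKM untreated. Mir9-1, Mir9-3 and Mir137 thus had reads almost solely in untreated libraries, and Mir9-2 had them in all 9. The hairpins are short, so a few reads can give several RPKM and these values are imprecise. The host transcript of Mir9-3 had reads in all groups. C130071C03Rik, the host of Mir9-2, had 6.30, 6.05 and 8.76 RPKM with Bic/4AP, 4.63, 4.62 and 5.14 RPKM with TTX, and 8.95, 9.38 and 9.93 RPKM untreated. Mir9-3hg (AI854517 in the files) had 7.66, 8.54 and 8.57 RPKM with Bic/4AP, 12.03, 10.6 and 10.5 RPKM with TTX, and 6.47, 7.71 and 7.14 RPKM untreated.

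Marker lists of other cells moved with the groups. The 10 choroid plexus genes summed to 37.9 to 43.0 RPKM with Bic/4AP, 21.7 to 28.7 RPKM with TTX and 438 to 654 RPKM untreated, and none of them was listed at 0 in all libraries of a group. The 10 progenitor and cycling genes summed to 162 to 184 RPKM with Bic/4AP, 111 to 112 RPKM with TTX and 77.0 to 85.0 RPKM untreated, and 1 of them was listed at 0 in all Bic/4AP libraries. The 10 oligodendrocyte lineage markers summed to 28.0 to 36.1 RPKM with Bic/4AP, 58.1 to 70.2 RPKM with TTX and 29.9 to 37.5 RPKM untreated, with 2 of them at 0 in each Bic/4AP library. The 12 vascular, mural and fibroblast markers summed to 48.0 to 63.5 RPKM with Bic/4AP, 55.2 to 66.1 RPKM with TTX and 38.6 to 50.1 RPKM untreated. The part of these cells in the RNA differences of domain genes was not tested. None of the 5 choroid plexus genes with a known start, and none of the 9 progenitor and cycling genes, had it in a broad domain. The share over all genes was 1.19%, so lists this short would mostly give 0.

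With Bic/4AP, 95 of the 201 domain genes tested passed as higher and 72 as lower than untreated (limma on log2(RPKM + 1), Benjamini-Hochberg adjusted p under 0.05 over all 14801 genes). Over all tested genes 72.1% passed, 29.6% higher and 42.5% lower, and among domain genes the shares were 47.3% and 35.8%. The median log2 change of domain genes was 0.14, against -0.12 over all genes. This tilt changed with the scaling. Quantile normalization moved the median of all genes by 0.18 and cyclic loess by 0.14 on the log2 scale, and the counts of domain genes became 74 higher and 85 lower, and 71 higher and 99 lower, with medians of -0.03 and -0.08. After quantile normalization 36.8% of domain genes were higher and 42.3% lower, against 38.8% and 30.9% of all tested genes. After cyclic loess 35.3% of domain genes were higher and 49.3% lower, against 35.8% and 35% of all. The larger share of higher genes among domain genes was thus seen on the deposited scale and not after either normalization. In 161 of the 201 domain genes (80.1%) the Bic/4AP and untreated libraries did not overlap, against 71.3% of all tested genes.

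On the deposited scale the shares differed by the level of a gene. Under 10 RPKM untreated, 11 of 31 domain genes (35.5%) were higher with Bic/4AP, against 19.2% of all tested genes. Between 10 and 25 RPKM 19 of 51 domain genes were (37.3%), against 21.9% of all, and between 25 and 50 RPKM 37 of 76 (48.7%), against 47.9% of all. At 50 RPKM or more 28 of 43 domain genes were (65.1%), against 654 of 819 of all tested genes (79.9%). The bars of response by level show this. These shares rest on few domain genes per class, were not tested and were not computed under the other scalings.

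**Figure D2:**
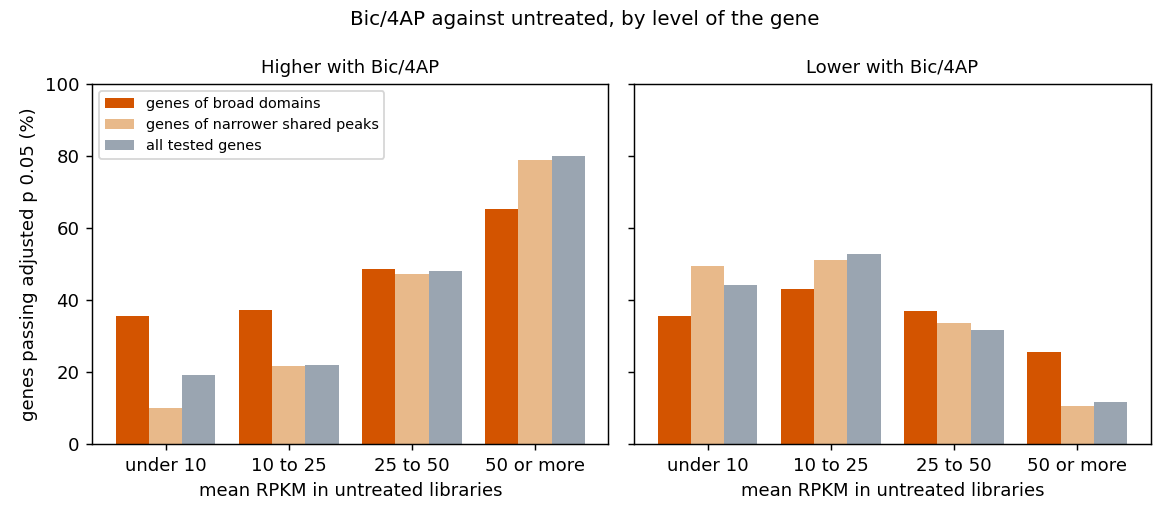
Share of genes on the deposited scale, in %, that passed as higher (left) or lower (right) with Bic/4AP against untreated, by mean untreated RPKM, for genes of broad domains, genes of narrower shared peaks and all tested genes. Under 10 RPKM, 35.5% of domain genes were higher, against 19.2% of all tested genes, and at 50 RPKM or more 65.1%, against 79.9%.

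The largest rises with Bic/4AP among domain genes of 5 RPKM or more in either group kept their direction under both other normalizations. Nfil3, a bZIP repressor induced by activity, had 69.1, 71.5 and 75.7 RPKM with Bic/4AP and 18.98, 21.2 and 16.2 RPKM untreated. All 3 Bic/4AP libraries were far above the untreated ones, with a log2 change of 1.89 ± 0.09 (SE, n = 3 each, limma adjusted p = 7.6e-09), or 2.02 relative to the median of all genes. Fezf2, a zinc finger factor of forebrain projection neurons, had 66.5, 66.4 and 68.6 RPKM with Bic/4AP and 16.9, 21.1 and 16.7 RPKM untreated. Its groups were as clearly apart, with a log2 change of 1.83 ± 0.08 (limma adjusted p = 5.3e-09), or 1.96 relative to the median. Bdnf had 77.4, 76.7 and 78.2 RPKM with Bic/4AP and 23.5, 23.7 and 21.6 RPKM untreated, a log2 change of 1.71 ± 0.06 (limma adjusted p = 1.6e-09), or 1.84 relative to the median. Emx2, a homeobox gene needed to form the hippocampus, had 28.9, 28.1 and 30.1 RPKM with Bic/4AP and 7.58, 10.9 and 6.97 RPKM untreated. The protocadherin gene Pcdh8 had 77.1, 79.0 and 79.6 RPKM with Bic/4AP against 24.7, 25.2 and 23.1 RPKM untreated. Midn, which encodes the nuclear protein midnolin, had 49.2, 50.5 and 45.9 RPKM with Bic/4AP against 14.9, 19.8 and 14.4 RPKM untreated. These last genes had log2 changes of 1.69 (Emx2), 1.65 (Pcdh8) and 1.53 (Midn), with no overlap between groups.

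By the same minimum, the largest falls with Bic/4AP were at genes of several functions. Cyth1, an exchange factor for ARF GTPases, had 5.06, 6.66 and 5.91 RPKM with Bic/4AP and 35.7, 29.7 and 39.2 RPKM untreated, a log2 change of -2.38 ± 0.11 (SE, n = 3 each, limma adjusted p = 7.2e-09). Nin, which encodes the centrosomal protein ninein, had 5.64, 5.09 and 5.49 RPKM with Bic/4AP and 26.6, 24.4 and 31.2 RPKM untreated. Zmynd8, a reader of acetylated histones, had 4.37, 4.26 and 5.10 RPKM with Bic/4AP and 23.5, 20.1 and 26.5 RPKM untreated. The log2 changes were -2.14 for Nin and -2.12 for Zmynd8. Ap1g2, an adaptor complex subunit, had 0.213, 0.841 and 0.668 RPKM with Bic/4AP and 6.04, 5.44 and 7.32 RPKM untreated. Dbp, a bZIP factor of the circadian clock, had 1.14, 1.44 and 0.991 RPKM with Bic/4AP and 7.17, 7.13 and 9.14 RPKM untreated. Fuz, a planar cell polarity gene, had 2.57, 1.85 and 1.59 RPKM with Bic/4AP and 10.8, 9.18 and 11.99 RPKM untreated. In all 6 genes every Bic/4AP library was below every untreated library, and the falls held under both other normalizations.

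Of the 14 identity factors with a start in a broad domain, 10 were higher and 2 lower with Bic/4AP on the deposited scale, where 29.6% of all tested genes were higher and 42.5% lower. After quantile normalization 5 were higher and 5 lower, and after cyclic loess 5 and 6, so no common direction held. The 5 higher under every scaling were Fezf2, Emx2, Nr2f1, Sox4 and Lhx2. Nr2f1 had 45.1, 48.2 and 40.5 RPKM with Bic/4AP and 25.8, 26.6 and 22.8 RPKM untreated, a log2 change of 0.81 ± 0.08 (SE, n = 3 each, limma adjusted p = 1.7e-06). Sox4, a SoxC factor of young neurons, had 17.6, 19.2 and 18.1 RPKM with Bic/4AP and 8.84, 12.4 and 8.50 RPKM untreated. Lhx2, a LIM homeobox factor of the cortical field, had 39.1, 40.6 and 35.8 RPKM with Bic/4AP and 28.5, 29.5 and 26.2 RPKM untreated. Myt1l, a repressor of non-neuronal programs, was lower under every scaling, with 26.4, 27.2 and 26.0 RPKM with Bic/4AP and 42.6, 39.9 and 46.7 RPKM untreated (log2 change -0.68). Klf7 was also lower under every scaling, by a log2 change of -0.28, but not without untreated replicate 2 (adjusted p = 0.11), Bic/4AP replicate 1 (0.068) or Bic/4AP replicate 3 (0.12), in limma.

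For the remaining factors the deposited values and the normalizations parted. Nfix had 51.2, 53.5 and 48.5 RPKM with Bic/4AP and 42.8, 41.4 and 41.1 RPKM untreated, a log2 change of 0.28 that became -0.003 after quantile normalization. Zeb2, a transcriptional repressor that acts in neural development, had 54.6, 52.6 and 53.3 RPKM with Bic/4AP and 47.6, 45.4 and 47.8 RPKM untreated, a log2 change of 0.19 that became -0.13. Neurod6, a marker of pyramidal neurons, had 103, 106 and 93.5 RPKM with Bic/4AP and 93.6, 76.0 and 89.7 RPKM untreated, a log2 change of 0.23 that became -0.26. Its groups overlapped. Neurod1 and Hivep2 also changed sign, and Zbtb18 did not pass as deposited (log2 change 0.12) but passed as lower after quantile normalization (-0.29). Bcl11a did not pass, with 30.4, 30.4 and 27.3 RPKM with Bic/4AP and 28.0, 29.1 and 28.8 RPKM untreated. The plot of identity factors gives every library.

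**Figure D3:**
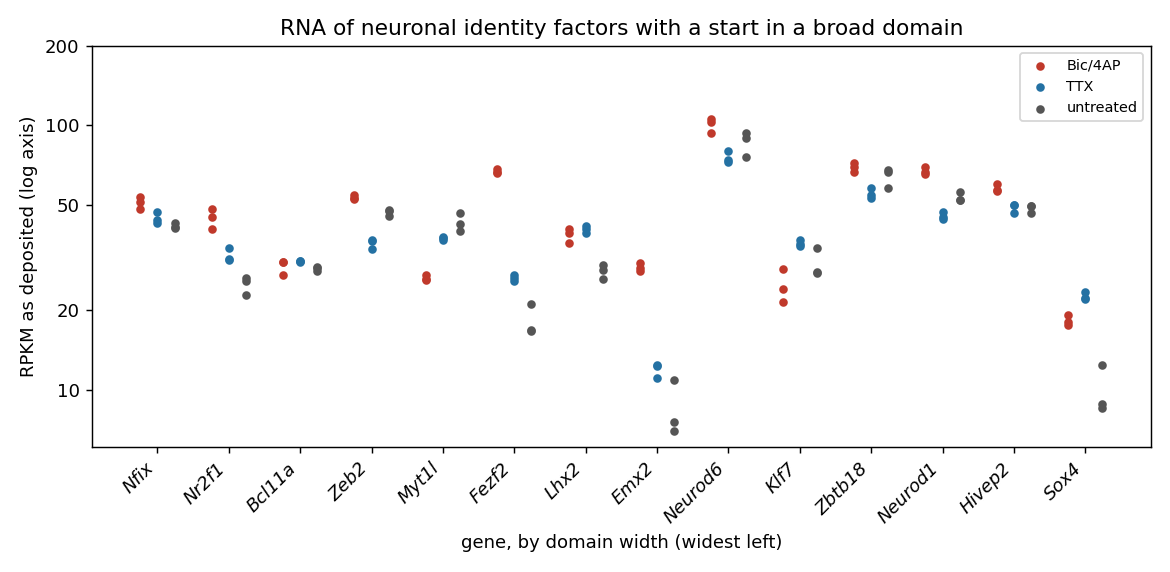
RPKM as deposited, on a log axis, of the 14 neuronal identity factors with a start in a broad domain, ordered by domain width, with 1 point per library for Bic/4AP, TTX and untreated. The 3 Fezf2 points with Bic/4AP lie between 66.4 and 68.6 RPKM, above all untreated points (16.7 to 21.1 RPKM), while the Bcl11a groups overlap.

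Tcf4, Zbtb20 and Sox11 had no start counted in a domain but lie over wide or lowly methylated domains, and were chosen, with Msra, after their values were seen. Tcf4 had 102, 101 and 104 RPKM with Bic/4AP, 59.6, 60.9 and 66.1 RPKM with TTX, and 94.4, 77.2 and 90.9 RPKM untreated. For Tcf4 the TTX libraries were all below the others. Zbtb20 had 35.4, 39.5 and 44.1 RPKM with Bic/4AP and 64.1, 53.6 and 71.9 RPKM untreated. Sox11 had 47.5, 47.7 and 45.4 RPKM with Bic/4AP and 24.0, 25.9 and 24.5 RPKM untreated. Msra, the gene with the most domains, had 30.8, 34.6 and 33.0 RPKM with Bic/4AP and 33.0, 30.8 and 30.9 RPKM untreated, groups that overlap.

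All 3 late activity genes with a start in a broad domain passed as higher with Bic/4AP under every scaling, as did the single rapid gene. Over all tested genes 29.6% passed as higher on the deposited scale, 38.8% after quantile normalization and 35.8% after cyclic loess. Lingo1, which encodes a membrane inhibitor of axon growth, had 61.2, 68.2 and 56.3 RPKM with Bic/4AP and 39.6, 42.8 and 38.3 RPKM untreated. Nr4a3, a nuclear receptor of the rapid response, had 111, 115 and 115 RPKM with Bic/4AP and 45.6, 49.8 and 39.8 RPKM untreated, a log2 change of 1.33 ± 0.08 (SE, n = 3 each, limma adjusted p = 3.9e-08). Neither gene had overlapping groups. Among synapse genes, Grik2, a kainate receptor subunit, passed as lower, with 25.0, 26.2 and 25.5 RPKM with Bic/4AP and 33.2, 33.8 and 37.2 RPKM untreated. Camk2b, a subunit of the calcium/calmodulin kinase of synapses, was also lower (log2 change -0.31), though not without untreated replicate 3 (limma adjusted p = 0.058). Gria2 did not pass as deposited (65.1, 66.3 and 70.2 RPKM with Bic/4AP, 67.0, 55.6 and 69.3 RPKM untreated), and passed as lower after quantile normalization (log2 change -0.32). Slc17a7, the vesicular glutamate transporter of excitatory neurons, passed as higher on the deposited scale (log2 change 0.23) and as lower after quantile normalization (-0.24). Gabra2, a GABA-A receptor subunit, had a log2 change of 0.50 that became -0.01 after quantile normalization. Gad1, the enzyme that makes GABA, was higher under each scaling, with 116, 117 and 123 RPKM with Bic/4AP and 79.5, 65.7 and 71.1 RPKM untreated. Hdac9, a class IIa histone deacetylase, was likewise higher (48.9, 48.2 and 47.7 RPKM with Bic/4AP, 35.1, 35.3 and 30.6 RPKM untreated). Basp1, a growth cone protein, had a log2 change of 0.59 as deposited and -0.01 after cyclic loess. Arid1b, a subunit of BAF chromatin remodellers, was lower as deposited (log2 change -0.26) and did not pass after either normalization.

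With TTX, 51 of the 201 domain genes passed as higher and 72 as lower than untreated (limma, adjusted p under 0.05). Over all tested genes 64.1% passed, 40.6% higher and 23.5% lower, while the shares of domain genes were 25.4% and 35.8%. The median log2 change was -0.07 for domain genes and 0.13 for all. Quantile normalization gave 50 higher and 99 lower domain genes (24.9% and 49.3%), against 37.3% higher and 31.9% lower of all tested genes. Cyclic loess, which moved the median of all genes by -0.16, gave 40 and 104 (19.9% and 51.7%), against 30.8% and 35.4% of all, so lower genes then led over all genes too. In 129 domain genes (64.2%) the TTX and untreated libraries did not overlap, against 69.6% of all. Of the 43 domain genes at 50 RPKM or more untreated, 30 were lower and 0 higher with TTX by limma, and of all 819 such genes 55.7% were lower and 6.96% higher. Under 10 RPKM, 11 of 31 domain genes were lower (35.5%), against 21.2% of all tested genes. Between 10 and 25 RPKM 6 of 51 were (11.8%), against 17.4% of all, and between 25 and 50 RPKM 25 of 76 (32.9%), against 29.0% of all. The TTX and Bic/4AP comparisons share the untreated libraries, so their values are set side by side only.

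The largest rises with TTX among domain genes of 5 RPKM or more in either group were at Gpr56, Sox4 and Ankrd34a. Sox4 had 22.3, 22.1 and 23.5 RPKM with TTX and 8.84, 12.4 and 8.50 RPKM untreated, a log2 change of 1.13 ± 0.11 (SE, n = 3 each, limma adjusted p = 7.6e-06). Gpr56, an adhesion receptor now named Adgrg1, had 22.8, 23.8 and 21.4 RPKM with TTX and 7.90, 13.4 and 7.94 RPKM untreated. Ankrd34a had 26.1, 25.6 and 25.9 RPKM with TTX and 10.1, 16.7 and 10.4 RPKM untreated. In each of these 3 genes the untreated library 2, the deepest of its group (9.97 M reads), lay closest to the TTX libraries. The groups still did not overlap. The largest falls among genes of 5 RPKM or more in either group were at Ap1g2, with 1.53, 1.43 and 0.898 RPKM with TTX and 6.04, 5.44 and 7.32 RPKM untreated, at Malat1, and at Nin, with 12.3, 11.5 and 10.9 RPKM with TTX and 26.6, 24.4 and 31.2 RPKM untreated. Malat1, a nuclear noncoding RNA, had 73.9, 76.8 and 111 RPKM with Bic/4AP, 58.0, 54.5 and 66.9 RPKM with TTX, and 163, 110 and 166 RPKM untreated. Its lowest untreated library was just below its highest Bic/4AP library and above all TTX libraries. Both glutamate receptor genes were lower with TTX. Gria2 had 39.9, 40.6 and 42.7 RPKM with TTX and 67.0, 55.6 and 69.3 RPKM untreated, and Grik2 23.3, 21.6 and 22.2 RPKM with TTX against 33.2, 33.8 and 37.2 RPKM untreated. The log2 changes were -0.62 for Gria2 and -0.61 for Grik2, and both passed under each scaling. Zeb2 was lower as well (log2 change -0.38), as was the Mir9-2 host C130071C03Rik (-0.85), while Mir9-3hg (AI854517) was higher (0.57). The change of C130071C03Rik with Bic/4AP, -0.39, changed sign under both other normalizations.

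Between Bic/4AP and TTX, 93 of the 201 domain genes were higher and 76 lower (limma, adjusted p under 0.05). Over all tested genes 76.8% passed, 23.7% higher and 53.1% lower. The median log2 difference was 0.10 for domain genes and -0.33 for all genes. It became 0.06 for domain genes and -0.03 for all after quantile normalization, and -0.01 for each after cyclic loess. After quantile normalization 84 domain genes were higher and 73 lower (41.8% and 36.3%), against 33.7% and 36.2% of all tested genes. After cyclic loess 79 were higher and 78 lower (39.3% and 38.8%), against 34.7% and 35.7% of all. In 177 domain genes (88.1%) the libraries did not overlap, against 81.5% of all.

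CpG methylation inside the domains ranged from near 0 to above 90%. The median domain had 61.8% with Bic/4AP, 61.5% with TTX and 61.9% untreated, over 1289 domains with 10 or more CpGs listed in all 3 libraries. Narrower shared peaks had medians of 41.0% with Bic/4AP, 41.3% with TTX and 41.3% untreated. These medians cover the 15558 of 26671 narrower peaks that met the same CpG minimum. Peaks with fewer CpGs are thus left out far more often than domains. Over all CpGs common to the libraries methylation was 73.6% with Bic/4AP, 73.7% with TTX and 73.7% untreated. Pooled over their 111279 CpGs, which weights CpG-rich domains more, the domains were at 39.2% with Bic/4AP, 39.3% with TTX and 39.3% untreated. The flanks of 5 kb on each side had a median of 82.9% with Bic/4AP, 83.1% with TTX and 83.2% untreated. CpGs inside any peak of the untreated list were left out of these flanks. Methylation inside was lower than in the flanks so defined in 1104 of 1204 domains with Bic/4AP, 1117 with TTX and 1117 untreated. With all flank CpGs kept and pooled over domains, 500 bp flank bins stood between 62.7% and 71.1% untreated. Coverage was not given, so the depth behind these values is unknown.

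A gene start inside a domain went with low methylation. The 261 domains with a start had a median of 19.3% with Bic/4AP, 18.9% with TTX and 19.6% untreated, against 66.1% with Bic/4AP, 66.0% with TTX and 66.1% untreated in 1028 domains without a start. Untreated, 80 domains with a start (30.7%) and 38 without (3.70%) were under 10%. The class without a start includes the domains of chromosome 18, where starts are missing. It may also hold starts of other genes absent from the promoter table. The domains with a start were still more methylated than narrower shared peaks with a start, which had medians of 1.80% with Bic/4AP, 1.81% with TTX and 1.87% untreated. The density of CpGs listed in all 3 libraries went the other way. It was 18.3 per kb in the domains with a start and 41.5 in the narrower peaks with one. CpGs of the sequence that were not listed in all 3 are not in these densities. Methylation rose with distance from the start: within 250 bp of it the domain CpGs were at 6.36% with Bic/4AP, 6.31% with TTX and 6.38% untreated. At 1 to 2 kb they were at 21.9% with Bic/4AP, 22.2% with TTX and 22.0% untreated, and at 4 to 8 kb at 34.4% with Bic/4AP, 34.3% with TTX and 34.1% untreated. Domains of 20 kb or more had a median of 16.0% untreated, against 62.9% at 5 to 6 kb. The scatter of width and methylation and the edge-to-edge profile show these patterns.

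**Figure D4:**
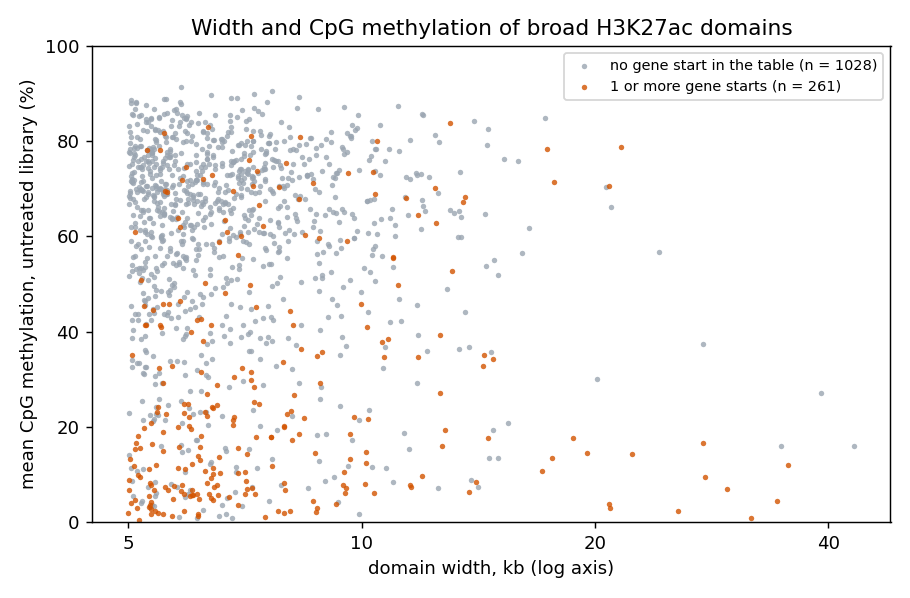
Mean CpG methylation in the untreated library (%) against domain width (kb, log axis), 1 point per domain with 10 or more CpGs, coloured by whether a gene start of the table lies inside. The 261 domains with a start have a median of 19.6% and the 1028 without one 66.1%.

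**Figure D5:**
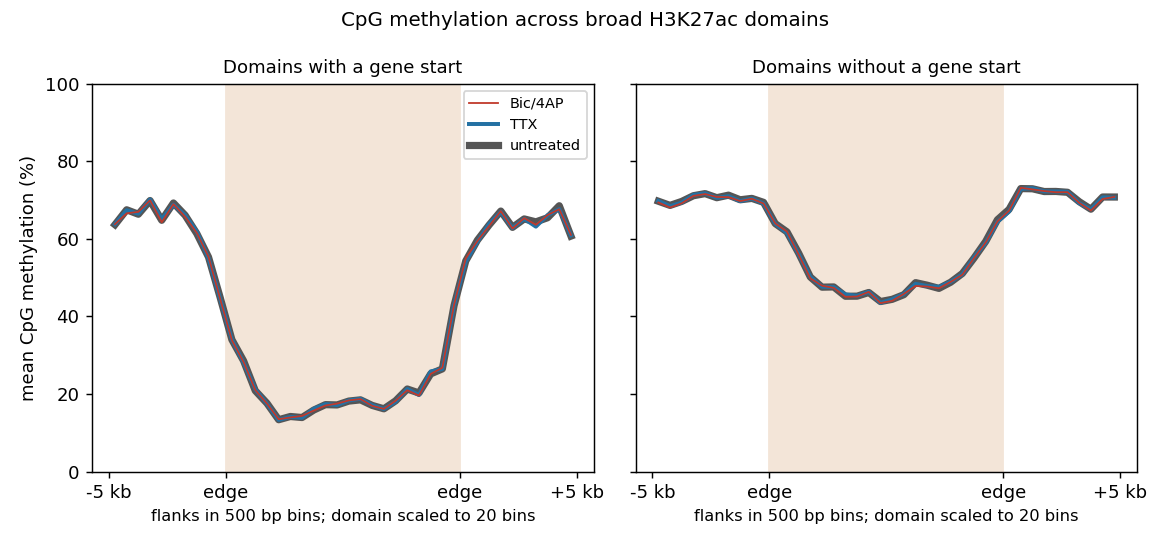
Mean CpG methylation (%) in 500 bp bins over 5 kb on each side and in 20 equal bins across each domain (shaded), for domains with and without a gene start, with 1 line per library (Bic/4AP, TTX and untreated). The 3 lines lie on each other, and the dip is deeper with a start (17.2% untreated in the tenth inside bin, against 43.8% without).

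The 3 least methylated domains were at Sox4, Cdh2 and Sox11, of 118 domains under 10% untreated. The domain of Sox4 (chr13:28948589-28953754, 5.17 kb) had 0.734% with Bic/4AP, 0.839% with TTX and 0.570% untreated over 242 CpGs. A domain at Cdh2, the gene of N-cadherin (chr18:16805015-16811139), had 0.699% with Bic/4AP, 0.953% with TTX and 0.820% untreated over 218 CpGs. One at Sox11 (chr12:27335763-27342573) had 1.07% with Bic/4AP, 1.20% with TTX and 0.826% untreated over 272 CpGs. The much wider domain of C130071C03Rik and Mir9-2 was as low, at 0.840% with Bic/4AP, 1.26% with TTX and 0.905% untreated over 552 CpGs, and those of Mir9-3hg and Mir9-1 were at 2.34% and 2.91% untreated. Bcl11a (9.59% untreated) and Nr2f1 (7.04% untreated) were low as means over all CpGs of the domain, whereas the 2 widest Tcf4 domains were at 15.9% and 27.2% untreated. The most methylated domains lay at chr8:103397247-103403084 and chr8:68935620-68943284, in no gene, and inside Dera (chr6:137773503-137780765), at 91.4%, 90.6% and 89.9% untreated, with 21, 23 and 117 CpGs.

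Methylation of domains hardly differed between treatments. The median difference was -0.13 percentage points for Bic/4AP minus untreated and -0.04 for TTX minus untreated. A shift of 5 points or more was seen in 54 of 1289 domains (4.19%) with Bic/4AP, 18 higher and 36 lower, and in 69 (5.35%) with TTX, 38 higher and 31 lower. Among the 15558 narrower shared peaks that met the CpG minimum, which hold fewer CpGs, the shares were 13.1% and 13.7%. The largest shifts with Bic/4AP were at domains of few CpGs: the domain at Gpm6b on X was at 7.78% with Bic/4AP and 17.4% untreated over 17 CpGs, and 1 at chr2:79148598-79154606 was at 55.9% with Bic/4AP and 44.8% untreated over 25 CpGs. With 1 library per treatment and no coverage there is no test of such shifts.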

How the data were processed

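Bowtie2 2.2.4, TopHat, SAMtools 0.1.19 and MACS 1.4.1 with the mm10 build are named, without their roles, in the submitters' processing notes. RPKM per gene were deposited for 9 RNA libraries, and the methylated fraction per CpG, without coverage, for 3 bisulfite libraries by the authors. The peak score in the lists is the authors' own, and no source says whether peak starts count from 0 or 1. The input library was not analysed here.

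Peaks were joined by 1 bp of overlap. Gene starts, bodies and sequences came from RefSeq tables of GRCm38.p6. Of 24058 gene names in the RPKM files, 22549 matched by symbol and 1292 by synonym, and 17806 had a start. Genes were tested with limma 3.58.1 (R 4.3.3) on log2(RPKM + 1), which understates changes of low genes, with all 9 libraries in 1 fit and Benjamini-Hochberg adjustment over the 14801 genes that passed a filter on low values. Of 212 domain genes in the files, 201 passed it. Methylation is the mean over CpGs listed in all 3 libraries.

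Replicate numbers in the labels did not pair the libraries: deviations of same-numbered libraries correlated between -0.17 and 0.04. Named genes were those of the widest domains, the largest changes past the threshold among genes with a mean of 5 RPKM or more in either group whose libraries did not overlap, and the members of the gene lists with a start in a domain. The domains and the gene lists were chosen with earlier results of these data known. Of the 12 widest domains, 1 is not reported here. The fit was tested on simulated data. Alternatives covered the width and overlap limits, the CpG minimum, scaling, pseudocount, filter and each library left out.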

Additional observations from a re-analysis of the deposited data

How the results depend on the processing

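Counts of domain genes moved mostly with the set chosen. At widths of 7.5 kb, at 3 kb and for any gene body in a domain, the tested genes numbered 71, 553 and 651. Genes higher with Bic/4AP than untreated numbered 31, 251 and 210 (43.7%, 45.4% and 32.3%), and lower ones 25, 196 and 298 (35.2%, 35.4% and 45.8%), so lower genes led for gene bodies. For TTX against untreated the higher genes were 22, 172 and 180 and the lower 26, 185 and 223. For Bic/4AP against TTX they were 32, 224 and 199 higher and 25, 231 and 317 lower. The median untreated level of domain genes was 29.4 RPKM at 3 kb, 23.3 RPKM for gene bodies and 30.5 RPKM over genes that passed the filter. Leaving out 1 library at a time gave 83 to 96 higher and 69 to 71 lower for Bic/4AP against untreated, 46 to 52 and 60 to 81 for TTX against untreated, 87 to 94 and 64 to 80 for Bic/4AP against TTX, and a median level of 27.9 to 28.6 RPKM. With the replicate number as a block, which the libraries did not share beyond its number, the higher and lower counts were 95 and 70 for Bic/4AP against untreated, 51 and 72 for TTX against untreated, and 92 and 75 for Bic/4AP against TTX.

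The share of domains with a peak of another list was 6.55% for the first Bic/4AP list, 0.231% for the first untreated list and 0.694% and 0.231% for the H3K4me1 lists when 50% of the domain had to be covered. With only the peaks above each list's median score it was 19.7%, 22.9%, 36.6% and 33.6%. At 3 kb it was 31.6%, 30.1%, 37.4% and 33.9%, and at 7.5 kb 41.4% for the first untreated list and 57.3% and 53.1% for the H3K4me1 lists. Median methylation with Bic/4AP, TTX and untreated was 53.5%, 52.9% and 53.3% at 50 CpGs or more and 60.7%, 59.8% and 60.3% at 7.5 kb, and pooled over CpGs 39.2%, 39.3% and 39.3%. With each library's own CpGs it was 62.9% with Bic/4AP.

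For the 66 changes of single genes that passed as deposited, 875 values under alternatives kept direction and call, 32 lost the call and 17 changed sign. Those 17 were for Bic/4AP against untreated. Changes that did not pass as deposited are not in this tally, and some of them changed sign too, such as Gria2 and Zbtb18 with Bic/4AP. After quantile and cyclic loess normalization the log2 changes were 0.17 and 0.13 for C130071C03Rik, -0.011 and -0.11 for Gabra2, -0.098 and -0.11 for Hivep2, -0.080 and -0.063 for Neurod1, -0.26 and -0.41 for Neurod6, -0.0033 and -0.011 for Nfix, -0.24 and -0.35 for Slc17a7, and -0.13 and -0.098 for Zeb2. For Basp1 it was -0.0054 after cyclic loess. The cause of these changes was not tested. Starts missing from the table, the lack of coverage in the methylation files and 1 bisulfite library per treatment limit what the domains can show.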

Other observations

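The 48 peaks of 5 kb or more without any Bic/4AP peak stand outside the set. Chromosome X was also thin among wide peaks of the other list: 2 of the 2064 Bic/4AP peaks of 5 kb or more were on X (0.0969%), against 555 of all untreated peaks (1.12%). Domains of genes that were higher with Bic/4AP had a median ratio of Bic/4AP to untreated peak width of 1.08, those of lower genes 1.03 and those of genes that did not pass 1.03. The quartiles overlapped, at 0.96 and 1.26 for higher genes, 0.89 and 1.12 for lower genes and 0.94 and 1.21 for the others. A link between peak width and RNA change was not tested.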
